A study of Mus musculus with 6 samples.

Results

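The cells described here are the muscle stem cells (MuSCs) and myoblasts of mouse lower abdominal muscle (LAM), taken as column group 11 of the deposited single-cell table. The columns of that table, in file order, form 180 contiguous runs of barcodes from 1 mouse, which make 30 passes through the 6 mice. The members are the barcodes of runs 61 to 66, the 11th pass, with at least 1000 unique molecular identifiers (UMIs, which count each captured RNA molecule once). Of 2911 barcodes in these runs, 39 had fewer UMIs, and the remaining 2872 were members, out of 59236 barcodes with that depth and 63647 in all. How the column order was made is not given in the sources used here, and since it may rest on the same counts, the genes that set column group 11 apart are given as a description, with no test.

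The mice were males on the FVB/N background, 9 to 10 weeks of age. The 3 wild-type (WT) mice were controls, and the 3 Aromhum mice had scrotal hernias and carried the human aromatase gene CYP19A1 under its own tissue-specific promoters, so that aromatase, the enzyme that makes estrogens from androgens, follows a human tissue pattern. LAM was harvested on 3 dates, with 1 WT and 1 Aromhum littermate on each, and digested with collagenase and dispase, and a filter removed multinucleated fibres before 10x Genomics capture. The mouse was the replicate throughout (n = 3 per genotype). WT mice 1 to 3 gave 478, 713 and 440 members, and Aromhum mice 1 to 3 gave 340, 567 and 334.

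MuSCs, also called satellite cells, lie between the muscle fibre and its basement membrane. Pax7 marks the quiescent cell, Myf5 and Myod1 are the basic helix-loop-helix factors of the activated cell and the proliferating myoblast, and Myog drives exit from the cell cycle, the contractile genes and fusion into fibres. Notch signalling keeps satellite cells quiescent, while laminins, collagens and fibronectin of the niche shape their renewal. Estrogens act on muscle through the estrogen receptor encoded by Esr1, and enzymatic digestion of muscle is itself known to induce immediate early genes in satellite cells.

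The members carried the myogenic markers by which the group is called. Among all barcodes with at least 1000 UMIs, they held 80.4% of Pax7 UMIs, 81.1% of Myf5 and 80.1% of Myod1. They also held 78.4% of Asb5 (a muscle ankyrin-repeat protein) and 77.4% of Cdh15 (M-cadherin). Msc, which encodes the repressor musculin, was less restricted, with 40.2% of its UMIs in the members. Pooled over mice, Pax7 was at 41.7 counts per 1000000 UMIs (CPM) in the members and at 3.81 CPM in the next highest column group with enough barcodes in every mouse. Myod1 was at 689 CPM against 29.1 CPM, and Asb5 at 1406 CPM against 65.1 CPM. Column group 30, with 64 barcodes, also held these genes, but together with endothelial and pericyte markers, and was not used.

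**Figure D1:**
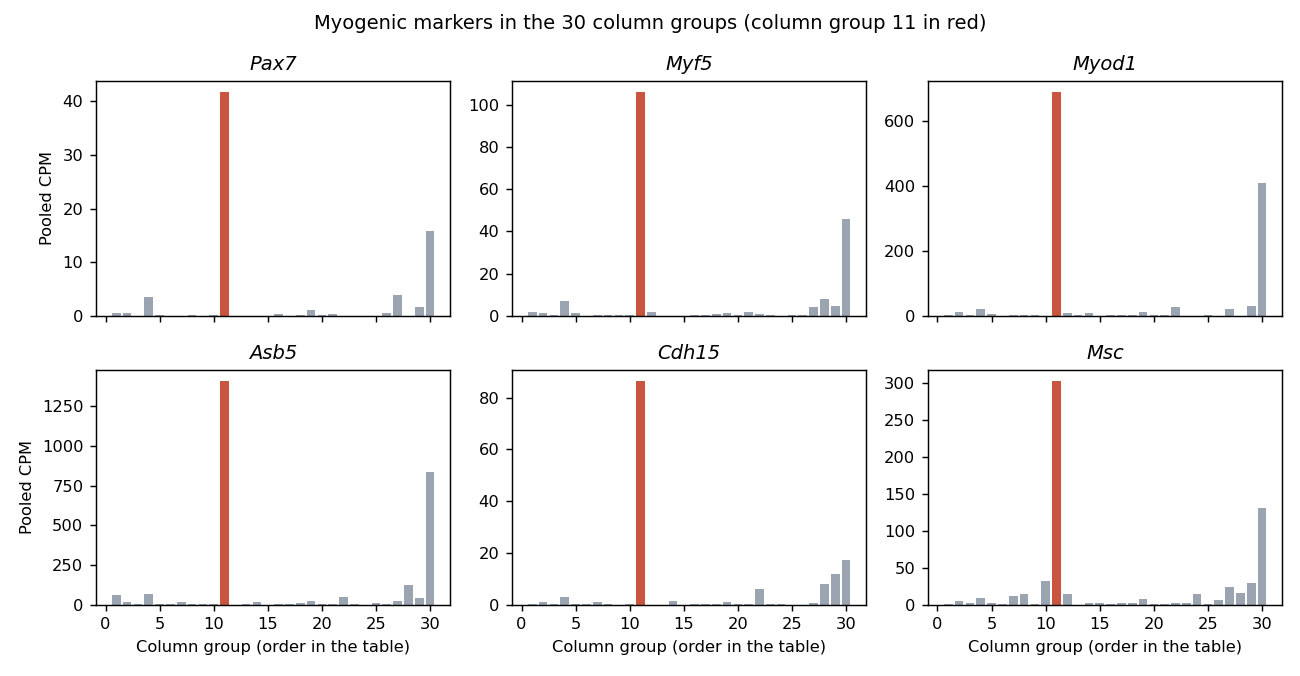
Pooled CPM (linear axes) of the 6 myogenic markers in each of the 30 column groups, numbered along the horizontal axis in table order, with column group 11 in red. The red bar is the highest in every panel, at 41.7 CPM for Pax7 and 1406 CPM for Asb5, and column group 30 is the only other group with a tall bar for most of them.

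The 15 genes with the highest ratio of members to all other barcodes were taken after adding 1 CPM to both levels, among genes with at least 50 CPM in the members of every mouse, a minimum that Pax7 did not reach. They included Gal, the gene of the neuropeptide galanin, at 2636 CPM in the members and 20.7 CPM elsewhere. Myod1, Asb5, Myf5, Cdh15 and Msc were among the 15, as were Fgfr4 (a fibroblast growth factor receptor of satellite cells) at 91.5 against 0.669 CPM, P2ry14 (a nucleotide-sugar receptor) at 392 against 9.99 CPM, and Cd82 (a tetraspanin of human and mouse satellite cells) at 316 against 21.8 CPM. The others were Ankrd1, Chodl, Arl4d, Uck2, Clcf1 and Runx1, with ratios from 8.31 to 19.9.

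The members' UMIs summed to between 1734035 and 3419575 per mouse, with medians of 3250 to 4907 UMIs per barcode. Mitochondrial UMIs were at a median of 5.69% to 7.54% per mouse, so that 2384 members exceeded the 5% limit of the study's methods, and 424 members passed all its limits. The doublet caller set no usable threshold of its own in the WT libraries, where it marked 0 barcodes. The 5% highest scores in every library were therefore treated as doublets, among them 78 members. In all, 943 barcodes shared their sequence with a barcode of another library, 48 of them members, and no sequence was shared between members of different libraries.

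The members were a smaller share of the barcodes in each Aromhum mouse than in each WT mouse. It was 5.11%, 7.44% and 5.86% for WT and 3.00%, 4.36% and 3.95% for Aromhum mice. The genotypes did not overlap (6.14% ± 1.19 against 3.77% ± 0.700, mean ± SD, n = 3 each). A 2-sided exact permutation test over the 6 mice gave p = 0.1, the smallest that 3 against 3 can give. Within the study's limits the shares were 2.66% ± 1.41 and 2.09% ± 0.673 (exact permutation p = 0.7). A share falls when other cells grow in number, and the absolute number of MuSCs/myoblasts was not measured.

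To compare gene expression, the members' UMIs were summed per mouse and 8429 genes were tested with edgeR's quasi-likelihood test. Of these, 296 genes passed at an adjusted p under 0.05 (3.51%), 170 higher (2.02%) and 126 lower (1.49%) in Aromhum mice. The counts of calls in each list below stand beside these shares, and 1 call in a list is not a result about that list. The median log2 fold change over all genes tested was 0.00761. The CPM of the genotypes did not overlap for 2304 genes (27.3%), among them 294 of the 296. The count rested on single mice: it was 0 without WT mouse 3 (1522 genes had an unadjusted p under 0.05 there), 3 without Aromhum mouse 2, 7 without Aromhum mouse 1, 16 without WT mouse 2, 225 without WT mouse 1 and 952 without Aromhum mouse 3. All 296 kept their direction in each of these 6 fits. Every call named below was therefore lost without WT mouse 3, and only Greb1 and Col3a1 passed in the other 5 fits.

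**Figure D2:**
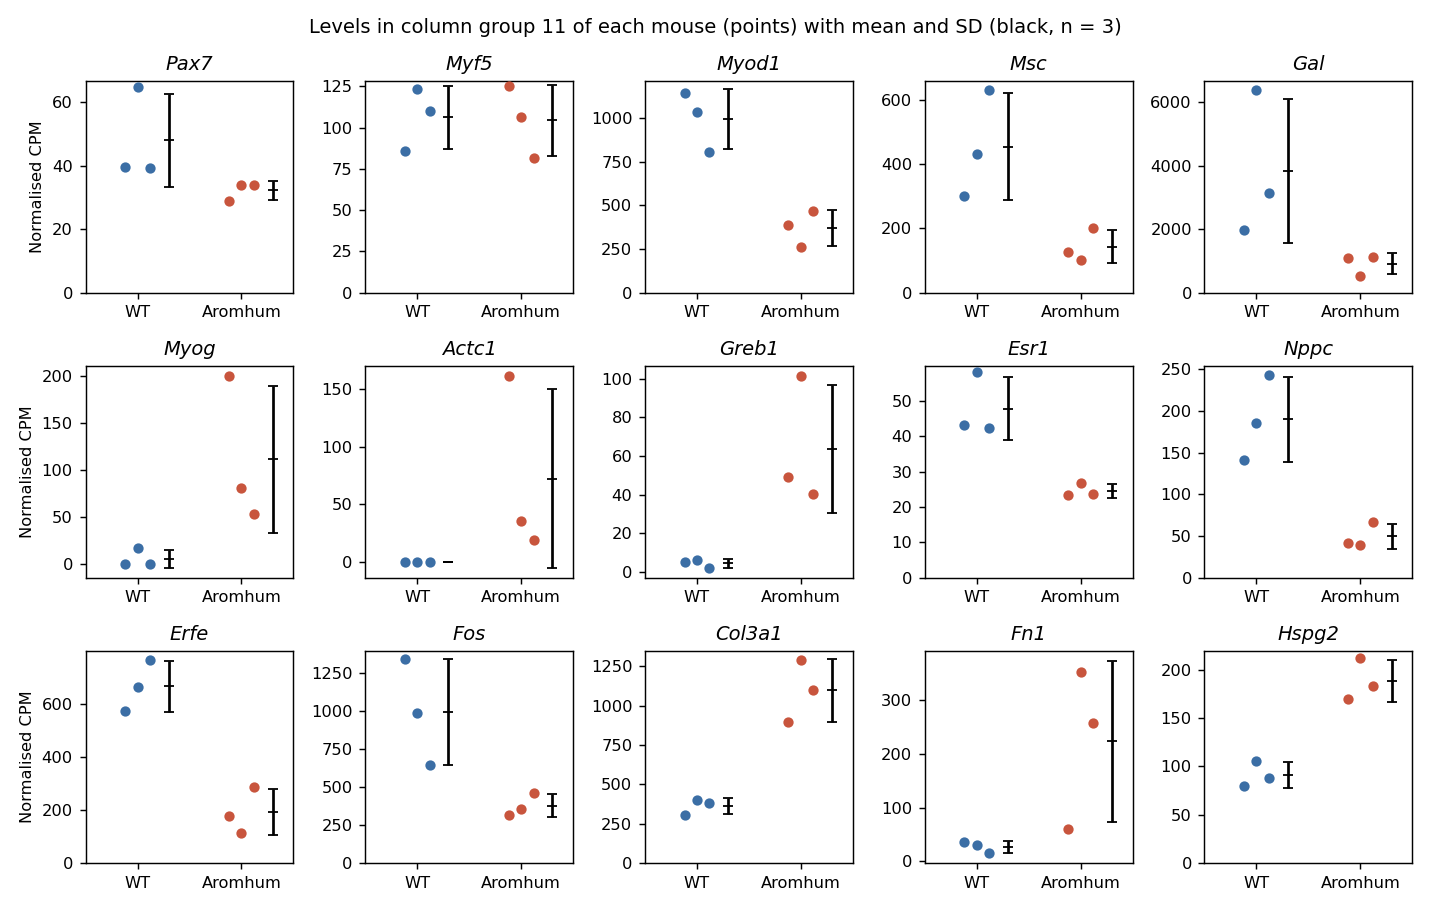
Normalised CPM (linear axes) of 15 genes in the members of each mouse, WT in blue and Aromhum in red, with the mean and SD of each genotype in black. Myod1, Msc, Gal, Esr1, Nppc, Erfe and Fos are lower, and Myog, Actc1, Greb1, Col3a1, Fn1 and Hspg2 higher, in every Aromhum mouse, while Myf5 overlaps, from 81.9 to 125 CPM in Aromhum and 85.7 to 123 CPM in WT mice.

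Among the 6 identity markers, 2 fell, none rose, and the median log2 fold change was -0.636. CPM are given from here on with the TMM size factors of the fit. Myod1 was at 1143, 1032 and 805.5 CPM in WT and at 386, 261 and 464 CPM in Aromhum mice. The highest Aromhum mouse lay well under the lowest WT mouse, and the log2 fold change was -1.42 ± 0.22 (SE; edgeR adjusted p = 0.0194). Msc was at 300.3, 430.5 and 632 CPM in WT and at 142.5 ± 51.6 CPM (mean ± SD, n = 3) in Aromhum mice, again without overlap (log2 fold change -1.68 ± 0.31, edgeR adjusted p = 0.0287).

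The other markers did not pass. Pax7 was at 39.6, 64.9 and 39.4 CPM in WT and at 28.8, 34.0 and 33.9 CPM in Aromhum mice (log2 fold change -0.59 ± 0.22, edgeR adjusted p = 0.156). These ranges did not overlap but lay close together. Myf5 had overlapping levels, 106.5 ± 19.1 CPM in WT and 104 ± 21.7 CPM in Aromhum mice. Asb5 was at 1850 ± 791 and 1150 ± 373 CPM, and Cdh15, the only marker with a positive fold change, at 73.9 ± 14.9 and 105 ± 17.4 CPM.

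The share of members with a UMI of each factor was compared after thinning every member to 1000 UMIs, which left none out. Myod1 was detected in 38.3%, 33.2% and 30.0% of the members of the WT mice and in 22.6%, 18.2% and 21.6% of those of the Aromhum mice, with no overlap (33.8% ± 4.18 against 20.8% ± 2.34, 2-sided exact permutation p = 0.1, the smallest possible). Without thinning the shares were 49.9% ± 3.97 and 34.6% ± 3.00. In column group 2, an endothelial-marked group that should lack Myod1, 0.419% and 0.0856% of barcodes had a UMI after thinning, at median depths of 5461.5 UMIs in WT and 4090 UMIs in Aromhum mice against 4336 and 3955 UMIs in the members. Pax7 was detected in 4.95% ± 1.45 of WT and 3.64% ± 0.715 of Aromhum members after thinning, with overlap (exact permutation p = 0.3), and in 16.1% and 13.7% without thinning.

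Genes of the satellite cell state showed no call in either direction among 17 tested (median log2 fold change 0.198). Without 2 sub-clusters of mixed markers 2 were higher and 1 lower, in a fit that called 378 of 8037 genes in either direction. Sdc4, a heparan sulfate proteoglycan of satellite cells, was at 1965 ± 331 CPM in WT and 1171 ± 260 CPM in Aromhum mice (edgeR adjusted p = 0.0675, and 0.0494 without those sub-clusters). Vcam1, a cell adhesion molecule, was at 329 ± 107 and 528 ± 173 CPM. Cdkn1c, a cell cycle inhibitor, ranged from 34.3 to 721 CPM within WT and from 136 to 733 CPM within Aromhum mice.

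Of 12 Notch genes tested, 1 fell and none rose (median log2 fold change -0.145), while 1.49% of all genes tested fell. Hes1, a direct Notch target, was at 110, 103 and 101 CPM in WT and at 54.8, 50.5 and 71.2 CPM in Aromhum mice (log2 fold change -0.84 ± 0.15, edgeR adjusted p = 0.0287). Hes1 also fell over all other barcodes (-0.92, edgeR adjusted p = 0.0184). It was at -1.03 in column group 17, the most similar to the members (0.0622), and at -0.55 in column group 2 (0.0555). The difference between the members and group 17 did not pass (0.17, edgeR adjusted p = 0.804). Heyl, another target, was at 138 ± 58.2 and 63.0 ± 19.2 CPM and did not pass (edgeR adjusted p = 0.0791), with WT mouse 1 at 76.1 CPM next to the Aromhum mice. The receptor gene Notch3 was at 112 ± 15.3 and 114 ± 5.37 CPM.

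Genes of commitment and fusion gave 4 higher and no lower calls among 13 tested (median log2 fold change 0.192). Myog was at 0, 16.9 and 0 CPM in WT and at 200.4, 80.9 and 53.1 CPM in Aromhum mice (log2 fold change 4.01 ± 0.86, edgeR adjusted p = 0.0398). Its fold change ranged from 3.31 to 10.86 on the log2 scale with 1 mouse left out, since only WT mouse 2 had Myog UMIs among WT mice. Tnnt2, the troponin T of embryonic and regenerating muscle, was at 11.2, 2.19 and 0.464 CPM in WT and at 157, 129 and 9.60 CPM in Aromhum mice, so that Aromhum mouse 3 lay below WT mouse 1 (log2 fold change 4.54 ± 0.98, edgeR adjusted p = 0.0412, and 4.04 to 6.01 with 1 mouse left out). Ttn, which encodes titin, was at 25.4, 17.2 and 4.18 CPM in WT and at 122, 105 and 33.3 CPM in Aromhum mice (log2 fold change 2.48 ± 0.55, edgeR adjusted p = 0.0440).

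Actc1, the cardiac actin that fetal and regenerating skeletal muscle also uses, had no UMI in any WT mouse and 291, 101 and 35 UMIs in the Aromhum mice. The pooled Aromhum level was 178 times a floor of 3 UMIs over the WT members (edgeR adjusted p = 0.0319 for the fitted difference). That ratio is no lower bound on the difference, since the UMIs sat in few cells and Aromhum mouse 1 held most of them. As cells, 17 of 1241 Aromhum members (1.37%) had an Actc1 UMI. Among WT members it was 0 of 1631, which allows up to 0.184%. The highest-level genes of the list, Cdkn1a, Des and Mef2a, did not pass. Des, which encodes desmin, stood at 814 ± 20.7 CPM in WT and 799 ± 25.8 CPM in Aromhum mice.

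Counted as cells, Myog was detected in 0 of 478, 8 of 713 and 0 of 440 WT members, where a count of 0 allows up to 0.628% and 0.682% of cells with a UMI (counting error only, since a cell without a UMI may still express the gene). In Aromhum mice it was detected in 15 of 340, 15 of 567 and 4 of 334 members. After thinning to 1000 UMIs the shares were 0.140% ± 0.243 in WT and 1.60% ± 0.657 in Aromhum mice (2-sided exact permutation p = 0.1), without overlap, and column group 2 then had none in either genotype. Of the 42 members with a Myog UMI, 36 also carried Cdkn1c, 30 Myod1, 26 Ttn, 22 Tnnt2, 22 Mymk (the fusion gene myomaker) and 17 Actc1, while 6 carried Pax7. None of the 8 WT cells with Myog had a UMI of Mymk or Actc1. All 17 members with an Actc1 UMI also had Myog.

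The promoters of 3 of these genes are shown because they were detected together in members with Myog. The windows, from RefSeq on GRCm38.p6, run from 250 bases before to 50 after an annotated start, 5′ to 3′ on the gene's strand. Capitals mark the E-box CANNTG, the core bound by myogenic basic helix-loop-helix factors (its reverse complement is the same pattern), in Myog and Tnnt2, and the CArG box, the serum response factor core, in Actc1. Myog lies at chr1:134289989-134292548 on the plus strand and its window at chr1:134289754-134290053.
Myog: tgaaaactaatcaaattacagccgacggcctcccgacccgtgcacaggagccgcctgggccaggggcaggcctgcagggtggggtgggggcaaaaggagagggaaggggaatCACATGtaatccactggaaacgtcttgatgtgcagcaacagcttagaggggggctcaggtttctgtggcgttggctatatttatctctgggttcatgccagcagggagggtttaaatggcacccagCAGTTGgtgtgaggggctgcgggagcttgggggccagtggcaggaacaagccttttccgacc
Tnnt2, upstream start, window chr1:135836084-135836383, plus strand: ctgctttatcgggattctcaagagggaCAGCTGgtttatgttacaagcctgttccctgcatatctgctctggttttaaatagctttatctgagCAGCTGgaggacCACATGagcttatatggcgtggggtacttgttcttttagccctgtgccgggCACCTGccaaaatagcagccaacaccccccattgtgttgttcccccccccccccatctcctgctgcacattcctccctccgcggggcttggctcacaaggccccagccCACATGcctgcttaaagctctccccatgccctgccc
Actc1, window chr2:114052826-114053125, minus strand: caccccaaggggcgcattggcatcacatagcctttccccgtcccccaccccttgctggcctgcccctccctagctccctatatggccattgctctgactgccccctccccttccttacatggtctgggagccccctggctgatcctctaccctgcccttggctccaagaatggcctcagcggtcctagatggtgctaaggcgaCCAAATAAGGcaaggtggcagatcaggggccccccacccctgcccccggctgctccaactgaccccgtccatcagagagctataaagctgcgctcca
The Myog window held 2 E-boxes and the Tnnt2 window shown 5, of which 2 were CAGCTG. The window of the other annotated Tnnt2 start, not shown, held 2 E-boxes and 0 CAGCTG. Of 32851 windows of the same length, 72.3% held CANNTG, 16.3% CAGCTG and 1.63% a CArG box, so an E-box alone was common. A match describes these letters and is not a shown binding site.

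Proliferation genes were few. Of 18 cell cycle genes 7 passed the filter on low counts, and none was called in either direction. Pcna, the sliding clamp of DNA replication, was at 76.9 ± 0.731 CPM in WT and 54.2 ± 11.3 CPM in Aromhum mice (edgeR adjusted p = 0.0984), and the cyclin genes Ccnd1 and Ccnd3 had overlapping levels.

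Gal and 2 further genes of secreted products were lower in Aromhum members. Gal was at 1972, 6382 and 3152 CPM in WT and at 1082, 526 and 1129 CPM in Aromhum mice, with WT mouse 2 far above all others (log2 fold change -2.07 ± 0.42, edgeR adjusted p = 0.0354). Nppc, the gene of C-type natriuretic peptide, was at 141, 185 and 243 CPM in WT and at 42.1, 39.7 and 66.7 CPM in Aromhum mice (log2 fold change -1.95 ± 0.25, edgeR adjusted p = 0.0150). Erfe, which encodes the hormone erythroferrone, was at 572, 663 and 765 CPM in WT and at 178, 111 and 285 CPM in Aromhum mice (log2 fold change -1.81 ± 0.29, edgeR adjusted p = 0.0236). None of the 3 overlapped between genotypes; Nppc and Erfe were chosen after their values were seen. Ankrd1, a stress-responsive ankyrin-repeat gene, and Chodl, a membrane lectin gene, fell as well (log2 fold changes -1.11 ± 0.15 and -0.83 ± 0.17).

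Among 8 steroid receptor and coregulator genes tested, 1 fell and none rose (median log2 fold change -0.169), while 1.49% of all genes tested fell. Esr1 was at 43.1, 58.0 and 42.2 CPM in WT and at 23.2, 26.8 and 23.7 CPM in Aromhum mice, without overlap (log2 fold change -0.96 ± 0.18, edgeR adjusted p = 0.0315). It was detected in 18.6% ± 3.13 of WT and 10.9% ± 0.900 of Aromhum members without thinning and in 4.72% ± 0.545 and 2.88% ± 0.481 after it. In column group 2 the shares ran the other way, 1.10% and 2.46%. Nr3c1, the glucocorticoid receptor gene, was at 211 ± 26.8 and 230 ± 8.72 CPM, and the coregulator genes Ncoa1 and Nrip1 did not pass.

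Of 12 genes of steroid response and polyamine metabolism, 2 rose and none fell (median log2 fold change -0.129). Greb1, a coactivator gene induced by estrogen receptor, was at 5.07, 6.27 and 1.86 CPM in WT and at 49.3, 101.6 and 40.1 CPM in Aromhum mice (log2 fold change 3.81 ± 0.45, edgeR adjusted p = 0.0150). Every Aromhum mouse was above every WT mouse. A Greb1 UMI was found in 1.66% ± 0.738 of WT and 22.9% ± 8.45 of Aromhum members, against 0.281% and 2.01% of barcodes in column group 2. After thinning to 1000 UMIs the shares were 0.583% ± 0.562 and 5.90% ± 4.82. Smox, spermine oxidase, was at 16.7, 14.1 and 19.5 CPM in WT and at 34.3, 38.3 and 27.7 CPM in Aromhum mice (log2 fold change 1.02 ± 0.20, edgeR adjusted p = 0.0330). The polyamine genes Odc1 and Sat1 and the glucocorticoid-responsive Klf9 did not pass.

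Greb1 lies at chr12:16670615-16800886 on the minus strand (GRCm38), and the window of its upstream annotated start is shown because its rise passed in 5 of the 6 fits that left out a mouse. Capitals mark GGTCA, the core repeat of the estrogen response element, on either strand.
Greb1, window chr12:16800837-16801136, minus strand: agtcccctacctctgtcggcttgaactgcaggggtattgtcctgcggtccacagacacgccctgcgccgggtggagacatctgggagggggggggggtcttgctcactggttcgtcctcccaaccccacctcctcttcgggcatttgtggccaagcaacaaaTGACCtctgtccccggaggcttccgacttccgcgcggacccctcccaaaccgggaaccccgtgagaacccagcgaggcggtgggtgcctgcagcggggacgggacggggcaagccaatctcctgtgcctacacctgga
This window held GGTCA at 1 place, and 40.5% of the 32851 windows held it at least once, while neither annotated Greb1 start held the full element, GGTCA followed after 3 bases by its reverse complement, which 0.07% of windows hold. Elements further away were not searched.

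The transgene was at the edge of detection in these cells. CYP19A1 had 0 UMIs in every WT mouse and 0, 3 and 2 UMIs in the members of the Aromhum mice, that is 0, 1.17 and 1.08 CPM without size factors. Over all barcodes it had no UMI in WT mice and 7.03, 7.12 and 8.50 CPM in the Aromhum mice, and in column group 2 it was at 1.42, 2.84 and 2.23 CPM. The members' levels were at or below those of column group 2, and 5 of 1241 Aromhum members had a UMI. Whether these cells express the transgene was not tested.

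Of 20 immediate early and heat shock genes tested, 7 fell and none rose, 19 had a negative fold change and the median log2 fold change was -0.815. Fos, a subunit of AP-1, was at 1344, 990 and 646 CPM in WT and at 316, 354 and 462 CPM in Aromhum mice (log2 fold change -1.40 ± 0.26, edgeR adjusted p = 0.0289). Hspa1a, an inducible HSP70 gene, was at 132, 124 and 121 CPM in WT and at 33.8, 42.2 and 65.5 CPM in Aromhum mice (log2 fold change -1.42 ± 0.21, edgeR adjusted p = 0.0191). Atf3, Hspa1b, Dusp1, Jund and Fosb were the other calls, with log2 fold changes from -1.16 to -0.66, and Hspa1b no longer passed without 2 sub-clusters of mixed markers (edgeR adjusted p = 0.0524). Junb and Egr1 did not pass (edgeR adjusted p = 0.0663 and 0.0567). In the fit without those sub-clusters Egr1 did (-1.05, edgeR adjusted p = 0.0474), and 8 genes of the list were lower. That fit called 378 of all 8037 genes tested, in either direction. Egr1 was at 2242 ± 230 CPM in WT and 1084 ± 437 CPM in Aromhum mice. Hspa1a and Hspa1b fell elsewhere as well, with fitted log2 fold changes of -1.44 and -1.29 in the most similar column group (edgeR adjusted p = 0.0404 and 0.0334), -1.23 and -1.26 in column group 2 (0.00722 and 0.00352) and -1.44 and -1.36 over all other barcodes (0.0185 and 0.0182). Fos fell over all other barcodes (-0.62, edgeR adjusted p = 0.0367) but did not pass in the most similar group (-1.14, 0.0853) or in column group 2 (-0.31, 0.264). Dusp1 fell in the most similar group (-0.86, edgeR adjusted p = 0.0488) and did not pass in the others, and Atf3 and Jund passed in none of the 3. Against column group 2 the difference between the falls passed for Fos (-1.05 ± 0.19, edgeR adjusted p = 0.0265) and Dusp1 (-0.73 ± 0.15, edgeR adjusted p = 0.0446). It did not pass for either gene against the most similar group (Fos -0.14, edgeR adjusted p = 0.917; Dusp1 -0.05, 0.968) or against all other barcodes (0.107 and 0.103). Against the second most similar group it passed for Dusp1 (-0.94 ± 0.16, edgeR adjusted p = 0.0304) and Atf3 (-1.06 ± 0.19, edgeR adjusted p = 0.0382) and not for Fos (-1.16 ± 0.27, edgeR adjusted p = 0.0974). These genes respond to tissue digestion, and the part of that step in the difference was not tested.

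Of 19 niche and adhesion genes tested, 9 rose and none fell (median log2 fold change 0.683). Fn1, fibronectin, was at 35.0, 30.7 and 14.8 CPM in WT and at 59.2, 353 and 258 CPM in Aromhum mice (log2 fold change 3.06 ± 0.57, edgeR adjusted p = 0.0303). Hspg2, the basement membrane proteoglycan perlecan, was at 79.6, 105 and 88.2 CPM in WT and at 169, 212 and 183 CPM in Aromhum mice (log2 fold change 1.04 ± 0.15, edgeR adjusted p = 0.0183). Dag1, the dystroglycan that binds laminin, was at 342 ± 8.30 and 548 ± 43.6 CPM (log2 fold change 0.68 ± 0.12, edgeR adjusted p = 0.0287). The laminin chain gene Lamb1, nidogen gene Nid1 and collagen gene Col6a2 rose by log2 fold changes of 1.85 ± 0.32, 1.31 ± 0.28 and 1.36 ± 0.32, and Lamc1, Col5a1 and Col5a3 were the remaining calls. The call of Col6a2 was lost without the mixed sub-clusters, which are described with the fibroblast markers. Fn1, Col6a2, Lamb1 and Hspg2 also rose over all other barcodes (1.19, 0.948, 0.504 and 0.547, all at edgeR adjusted p under 0.05). Fn1, Col6a2 and Lamb1 rose in column group 2 too (1.05, 1.499 and 0.669, edgeR adjusted p = 0.0215, 0.01215 and 0.01765). Nid1 and Dag1 passed in neither. Lamb1 and Dag1 rose more than over all other barcodes (differences 1.41 and 0.696, edgeR adjusted p = 0.0173 and 0.03545). Itgb1, the integrin beta 1 gene, and Col4a1 had overlapping levels.

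Fibroblast markers moved in the same direction. Of the 10 in the list, all tested, 4 were higher and none lower (median log2 fold change 1.62), and their summed unscaled CPM ranged from 796 to 2413 in WT and from 3079 to 6143 in Aromhum members. Col3a1 was at 302, 398 and 381 CPM in WT and at 895, 1293 and 1102 CPM in Aromhum mice (log2 fold change 1.60 ± 0.18, edgeR adjusted p = 0.0150). Col1a1, Col1a2 and Fap were the other calls, with log2 fold changes of 2.75, 2.60 and 2.64. Dcn was between 142 and 1630 CPM within WT mice and did not pass (edgeR adjusted p = 0.302), but rose by 2.50 on the log2 scale without the mixed sub-clusters (edgeR adjusted p = 0.0178). In column group 2, Col3a1 was at 122 ± 29.0 CPM in WT and 768 ± 333 CPM in Aromhum mice, and over all other barcodes at 2183 ± 259 and 7085 ± 1273 CPM, all unscaled. The part of RNA from fibroblasts in these differences was not tested. Without 99 members, those of 2 sub-clusters that carried markers of another cell type, the fibroblast sum was 649.9 to 876 CPM in WT and 2143 to 3641 CPM in Aromhum mice. In that fit 7 of 8 fibroblast markers tested were higher, and 8 of 19 niche genes were, while 378 of all 8037 genes were called in either direction. Fap then no longer passed the filter on low counts. That fit kept sub-cluster 4, described below, which was 12.9% to 46.7% of the members of the Aromhum mice and at most 3.77% of those of the WT mice. Sub-cluster 4 held Col1a1 at 280 CPM, against 35.1, 36.5 and 15.1 CPM in sub-clusters 1, 2 and 3. It held Col3a1 at 1273 CPM, against 340, 373 and 235 CPM there.

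Other cell types' markers went both ways. Endothelial markers gave 2 lower and no higher calls of 7 tested (Kdr and Fabp4, log2 fold changes -2.03 ± 0.33 and -1.74 ± 0.35), and their summed CPM was 385 to 970 in WT and 132 to 249 in Aromhum members. Without the mixed sub-clusters Kdr no longer passed the filter on low counts, while 3 of 5 endothelial markers tested were lower. Fabp4 was then at -1.26 (edgeR adjusted p = 0.0124), and the summed CPM was 148.5 to 232 in WT and 67.9 to 98.0 in Aromhum members. Over all other barcodes Kdr and Fabp4 had fitted log2 fold changes of -1.32 and -1.67 (edgeR adjusted p = 0.0184 and 0.0192). In column group 2 they did not pass (-0.19 and -0.16, edgeR adjusted p = 0.309 and 0.460). Smooth muscle markers gave 2 higher calls of 4, Acta2 (log2 fold change 1.71 ± 0.34) and Tagln (1.12 ± 0.21), with 1 lower, the pericyte gene Rgs5 (-1.81 ± 0.36), whose call was lost without the mixed sub-clusters (-1.22, edgeR adjusted p = 0.114). Acta2 and Tagln are also made by myoblasts and fibroblasts. Their fitted log2 fold changes over all other barcodes were -0.71 and -0.415 and did not pass (edgeR adjusted p = 0.143 and 0.245). In column group 2 they were 0.47 and 0.48 and did not pass either (edgeR adjusted p = 0.2835 and 0.270). The source of this RNA in the members was not tested. Immune markers gave no call of 2 tested and muscle fibre markers none of 9 (Mylpf, a myosin light chain gene, was at 1.10 on the log2 scale and passed in the opposite direction, at -1.37, with at most 2500 genes per barcode, edgeR adjusted p = 0.0176), while none of 4 mesothelial markers passed the filter. No marker in these lists was at 0 in the members.

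Growth factor signalling genes gave 1 higher and no lower call of 17 tested (median log2 fold change 0.23), while 2.02% of all genes tested were higher. Tgfbr2, the type II receptor of transforming growth factor beta, was at 38.6, 31.7 and 27.4 CPM in WT and at 77.5, 131 and 53.7 CPM in Aromhum mice (log2 fold change 1.45 ± 0.30, edgeR adjusted p = 0.0357). It also rose in column group 2 (1.02, edgeR adjusted p = 0.0218) and over all other barcodes (1.54, 0.0188), and did not pass in the most similar group (0.78, 0.175). Igfbp5, an insulin-like growth factor binding protein gene, was at 522 ± 100.2 and 1569 ± 845 CPM and did not pass (edgeR adjusted p = 0.0592). Fgfr1 and Il6st had log2 fold changes of -0.22 and -0.26.

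Inflammatory mediators gave 1 higher and 2 lower calls of 16 tested (median log2 fold change 0.359). Nfkbia, the inhibitor of NF-kB, was at 1783, 2229 and 2120 CPM in WT and at 1148, 824 and 1299 CPM in Aromhum mice (log2 fold change -0.91 ± 0.19, edgeR adjusted p = 0.0358), and Icam1 fell from 78.7 ± 17.7 to 43.1 ± 6.90 CPM. The chemokine gene Ccl7 rose from 105 ± 18.6 to 184 ± 32.6 CPM, a call that was lost without the 2 mixed sub-clusters (edgeR adjusted p = 0.217), as was that of Icam1 (0.134). Ccl2 and Cxcl1 did not pass. Atrophy and autophagy genes gave no call in either direction among 8 tested (median log2 fold change -0.199), and the highest of them, Map1lc3a, was at 603 ± 30.3 and 452 ± 66.1 CPM.

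**Figure D3:**
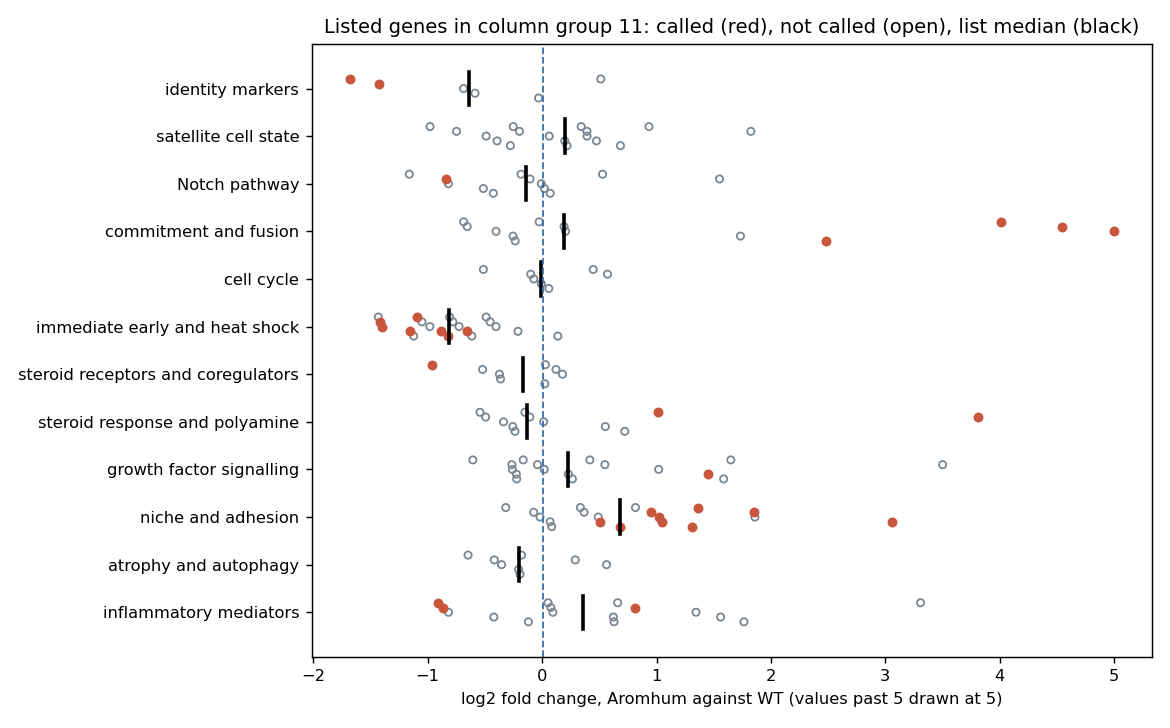
Log2 fold changes (Aromhum against WT) of the tested genes of 12 lists, one row a list, with called genes in red, others open, the list's median as a black bar and the median of all tested genes (0.00761) as a dashed line. The median is lowest for immediate early and heat shock genes (-0.815) and highest for niche and adhesion genes (0.683), and Actc1, whose WT level is 0, is drawn at the right edge.

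Outside the lists, the largest rises without overlap were led by genes of low level. Dmkn (dermokine) was at 2.54, 0.313 and 0.464 CPM in WT and at 15.5, 30.4 and 47.5 CPM in Aromhum mice (log2 fold change 4.92 ± 0.62). Spon2 and Postn, which encode matrix proteins of fibroblasts, had log2 fold changes of 4.09 ± 0.44 and 3.65 ± 0.48, and Pi16, an adventitial fibroblast gene, 3.17 ± 0.55. Cacng1, a subunit of the skeletal muscle calcium channel, was at 3.11 ± 1.55 and 30.2 ± 19.2 CPM. Arpp21, Tspan33 and Il13ra1 completed these, with log2 fold changes from 3.13 to 4.73. The call of Pi16 was lost without the mixed sub-clusters (edgeR adjusted p = 0.0813), and Dmkn, Spon2 and Il13ra1 then no longer passed the filter on low counts. Dmkn and Spon2 also rose in the most similar group (3.365 and 2.83, edgeR adjusted p = 0.0380 and 0.0248). In column group 2 they rose by 4.25 and 3.405 (edgeR adjusted p = 0.0291 and 0.01765). Over all other barcodes Spon2 and Postn rose by 2.44 and 1.73 (edgeR adjusted p = 0.01815 and 0.0182), and Dmkn did not pass (0.0719). Dmkn, Spon2 and Postn rose more than over all other barcodes (differences 3.38, 1.77 and 1.86, edgeR adjusted p = 0.0261, 0.0316 and 0.0221).

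Among the largest falls, Id2, an inhibitor of basic helix-loop-helix factors, was at 268, 1168 and 518 CPM in WT and at 75.9, 113 and 168 CPM in Aromhum mice (log2 fold change -2.46 ± 0.49, edgeR adjusted p = 0.0333). Neu2, the cytosolic sialidase, was at 59.9, 104 and 49.6 CPM in WT and at 10.5, 9.30 and 15.8 CPM in Aromhum mice (log2 fold change -2.62 ± 0.32, edgeR adjusted p = 0.0150). Cadm4, a cell adhesion gene, was at 47.7 ± 7.37 and 8.99 ± 4.67 CPM. Sln, which encodes the calcium pump regulator sarcolipin, had the largest fall (log2 fold change -3.50 ± 0.76) from 18.4 ± 16.6 CPM, of which WT mouse 3 had 37.6 CPM. Arhgap20, Timp4, Epha4 and Gfra1 had log2 fold changes from -2.92 to -2.32, and Cldn5, Adgrl4 and Adgrf5, all endothelial genes, from -2.55 to -2.32. Without the mixed sub-clusters Cldn5 was at -1.26 and did not pass (edgeR adjusted p = 0.0760), and Adgrl4, Adgrf5 and Timp4 no longer passed the filter on low counts. Cadm4, Timp4, Epha4, Cldn5, Adgrl4 and Adgrf5 also fell over all other barcodes (-2.67 to -0.82, each at an edgeR adjusted p under 0.05). Of these only Cadm4 fell more in the members (difference -1.60, edgeR adjusted p = 0.00643). Timp4 and Adgrl4 fell in the most similar group too (-2.41 and -3.07, edgeR adjusted p = 0.0380 and 0.0319), and Timp4 in column group 2 (-0.83, 0.03535). Id2, Neu2, Sln, Arhgap20 and Gfra1 passed in none of these.

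Clustering the members again, without the 296 called genes, gave 7 sub-clusters. They are named by their leading genes and differ in part because mice differ, so their sizes are given as a description. Sub-cluster 1 (1129 cells; Asb5, Cxcl3, Fosl1, Erfe) and sub-cluster 2 (670 cells; Fos, Socs3, Nppc, Pax7) were present in every mouse. Sub-cluster 2 held Pax7 at 123 CPM and Fos at 2715 CPM against 16.5 and 121 CPM in sub-cluster 1, and Myod1 at 593 against 853 CPM. It was 28.7%, 25.4% and 28.0% of the members in WT and 17.9%, 13.6% and 27.2% in Aromhum mice.

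Sub-cluster 3 (483 cells; Wnt4, Id2, Arhgap20, Gal) came almost wholly from 1 library: it was 61.2% of the members of WT mouse 2, 6.82% and 1.67% of those of the other WT mice and 0% to 1.06% of those of the Aromhum mice. Sub-cluster 4 (460 cells; Mgp, S100a4, Igfbp5, Timp1) was 35.6%, 46.7% and 12.9% of the members in the Aromhum mice and 3.77%, 0.842% and 1.59% in the WT mice. It held Myod1 at 278 CPM, Msc at 109 CPM and Gal at 512 CPM, the lowest of the 4 large sub-clusters, while Cdh15 (129 CPM) and Col3a1 (1273 CPM) were the highest of the 4 and Myf5 was at 133 CPM. Doublet scores marked 0.435% of it.

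Sub-cluster 5 (66 cells) was led by endothelial genes such as Fabp4 and Cdh5 and sub-cluster 6 (33 cells) by fibroblast genes such as Lum and Mfap5, with 71.2% and 66.7% of their cells marked as doublets. These are the 2 mixed sub-clusters. Sub-cluster 7 (31 cells; Actc1, Myog, Cdkn1c, Tnnt2, Mymk) had a median of 11770 UMIs, 3.23% of its cells marked as doublets, and 5, 4 and 0 cells from the WT mice against 11, 7 and 4 from the Aromhum mice. It held 26 of the 42 cells with Myog.

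**Figure D4:**
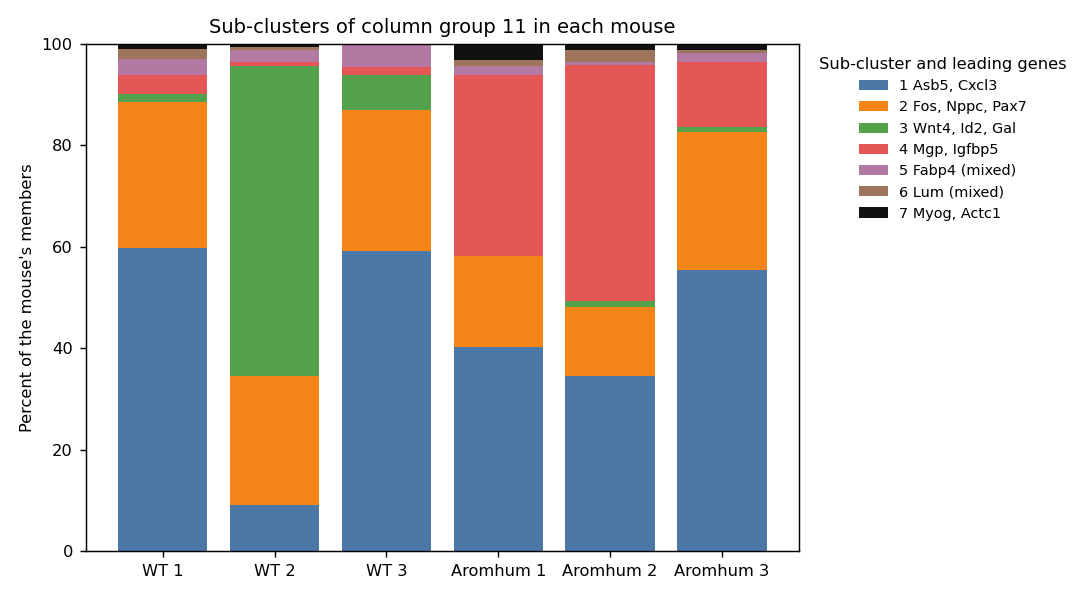
Stacked bars of the percent of each mouse's members in each of the 7 sub-clusters, named by leading genes. Sub-cluster 3 makes up 61.2% of WT mouse 2 and little of any other mouse, and sub-cluster 4 makes up 12.9% to 46.7% of the Aromhum mice and under 4% of each WT mouse.

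Within sub-clusters 1 and 2, which every mouse shared, levels were compared per mouse as unscaled CPM and with no test. Myod1 was at 1453, 949 and 826 CPM in WT and at 644, 491 and 467 CPM in Aromhum mice in sub-cluster 1, and at 544, 691 and 748 CPM against 407, 273 and 502 CPM in sub-cluster 2. Neither pair of ranges overlapped. Greb1 in sub-cluster 1 was at 3.53, 9.39 and 2.25 CPM in WT and at 47.2, 203 and 42.7 CPM in Aromhum mice. In sub-cluster 2 it was at no more than 2.08 CPM in WT (1, 0 and 0 UMIs) and at 23.4 to 32.8 CPM in Aromhum mice (5, 6 and 9 UMIs). Esr1 and Nppc were lower in every Aromhum mouse in both sub-clusters, Nppc at 370, 458 and 609 CPM against 195, 180 and 148 CPM in sub-cluster 2. The Esr1 levels of the Aromhum mice in sub-cluster 2 rested on 4, 6 and 9 UMIs. Col3a1 differed less within them than over all members, at 249 to 348 CPM in WT and 367 to 425 CPM in Aromhum mice in sub-cluster 1, with overlap in sub-cluster 2, while sub-cluster 4 held 1058 to 2475 CPM. Fos overlapped in sub-cluster 1 and in sub-cluster 2, where WT mice had 1926 to 4115 CPM and Aromhum mice 1630 to 2306 CPM.

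**Figure D5:**
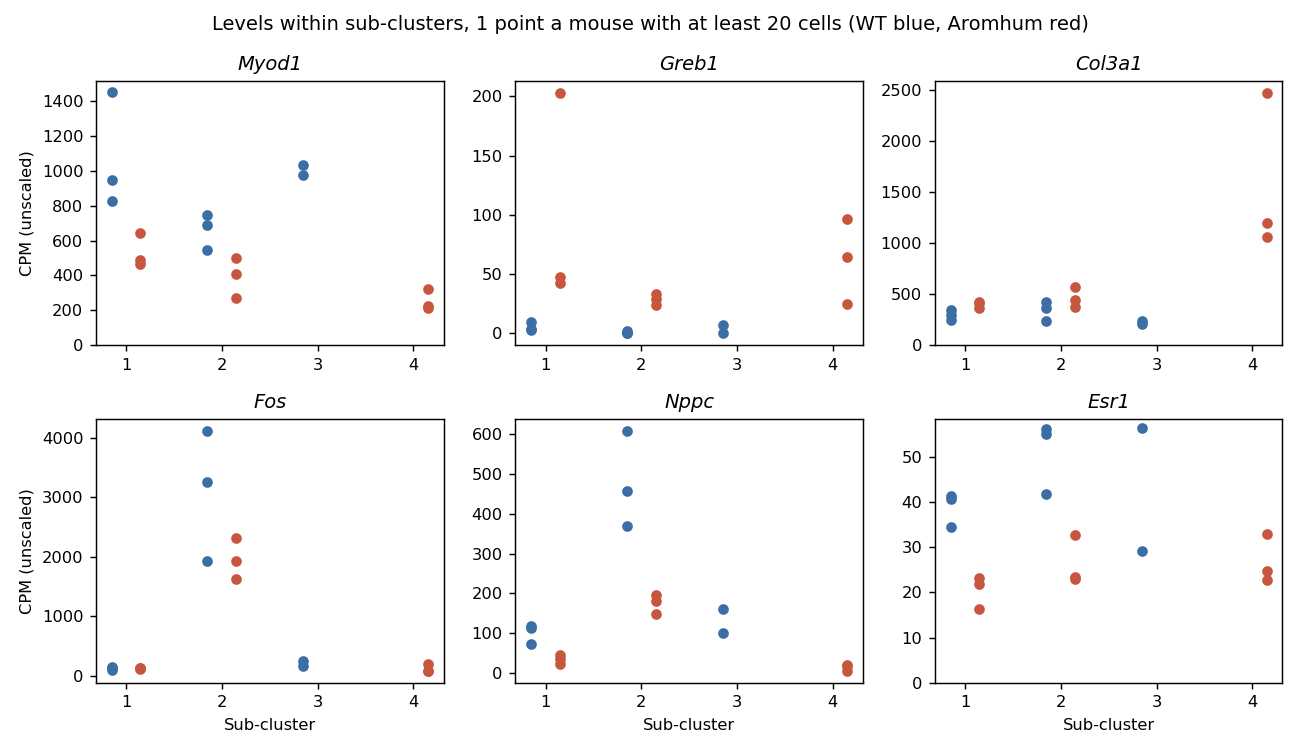
Unscaled CPM (linear axes) of 6 genes within sub-clusters 1 to 4, 1 point for each mouse with at least 20 cells there, WT in blue and Aromhum in red. Myod1 is lower and Greb1 higher in the Aromhum mice within both sub-clusters 1 and 2, and Col3a1 is highest in sub-cluster 4, at 1058 to 2475 CPM.

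Whether the differences were larger or smaller than in other cells was tested as an interaction. On simulated counts this test recovered 18% of 2-fold changes, so few calls do not show that other cells changed alike. Among column groups with at least 20 barcodes in every mouse, the most similar was group 17 (Rgs5-high, 1048 barcodes, r = 0.904 across genes). Against it, 1 of 9104 genes passed (0.011%), while 1074 had an unadjusted p under 0.05 in edgeR and limma voom called 11. That gene was Thy1, a surface glycoprotein of fibroblasts and pericytes, at 12.2, 10.7 and 16.7 CPM in WT and at 3.32, 4.30 and 6.78 CPM in Aromhum members. Its log2 fold change was -1.45 in the members and 1.78 in group 17, a difference of -3.28 ± 0.36 (edgeR adjusted p = 0.00862).

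Against all other barcodes pooled, a comparison added after the data were seen, 549 of 15287 genes passed (3.59%), 288 higher (1.88%) and 261 lower (1.71%). The pool is a mixture whose make-up differs between genotypes. Erfe was at 7.13 ± 1.40 CPM over the other barcodes of WT mice and at 131 ± 27.4 CPM in Aromhum mice, the opposite direction to the members, a difference of -6.09 ± 0.32 on the log2 scale (edgeR adjusted p = 2.87e-08). Nppc rose there from 30.9 ± 10.8 to 564 ± 250.3 CPM (difference -6.08 ± 0.49, edgeR adjusted p = 7.66e-06), Esr1 from 23.6 ± 9.06 to 64.7 ± 6.19 CPM (-2.49 ± 0.26, edgeR adjusted p = 0.000178). Msc was there at 9.12 ± 1.67 and 14.7 ± 3.69 CPM, a change that did not pass on its own, and the difference from the members was -2.34 ± 0.21 (edgeR adjusted p = 2.53e-05). Greb1 rose in both, and its difference did not pass (0.92 ± 0.31, edgeR adjusted p = 0.132), nor did that of Col3a1 (-0.09 ± 0.24, edgeR adjusted p = 0.933).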

How the data were processed

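Single-cell RNA from the LAM of 6 mice was captured with 10x Genomics chemistry. The authors aligned reads to mm10 with the human CYP19A1 gene added, using Cell Ranger 3.0.2, and deposited 1 table of UMI counts for 16494 genes and 63647 barcodes; the counts were used as deposited. Barcodes under 1000 UMIs were left out, and filterByExpr kept 8429 genes for the genotype test. Samples were grouped by their labels. Members and gene lists were chosen with earlier results of these data known. Their counts were summed per mouse and tested with edgeR 4.0.16 (TMM size factors, filterByExpr, quasi-likelihood test, Benjamini-Hochberg adjustment, threshold 0.05) in R 4.3.3; DESeq2 1.42.0 and limma 3.58.1 were alternatives. Total counts were 1734035 to 3419575 UMIs per mouse; UMI intervals and floors (3 counts) cover counting error only. Shares were compared with 2-sided exact permutation tests over mice.

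Members were sub-clustered in scanpy 1.11.5 (log values of counts scaled to 10000, 2000 variable genes, 30 components, 20 neighbours, Leiden resolution 0.5), and doublets were scored with Scrublet. Named genes were the identity markers; in each list up to 5 called genes and the 3 of highest level; the 12 largest non-overlapping changes in each direction, the 15 highest ratios to other barcodes, interaction calls and CYP19A1. Genes marked as chosen after seeing values fall outside this. On counts simulated for these 8429 genes, the genotype test recovered 60% of 2-fold and 100% of 4-fold rises, and 53.3% and 97.9% of such falls. The interaction test recovered 18% of 2-fold changes in either direction, 86% of 4-fold rises and 68% of 4-fold falls. The labels do not say which replicates shared a date, so numbers were not used as pairs in the main fit. Same-numbered mice correlated at r = 0.141, 0.0872 and 0.208 in their deviations, each higher than with any other number. One result is not reported here.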

Additional observations from a re-analysis of the deposited data

Results flagged for a closer look

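Thy1 was the only gene whose genotype difference in the MuSCs/myoblasts differed from that in the most similar column group by the test of the difference itself. The interaction was -3.28 on the log2 scale (edgeR adjusted p = 0.00862), lower in the members of 3 of 3 Aromhum mice and higher in group 17. Thy1 lay at no more than 16.7 CPM in any mouse's members. Against the second most similar column group the interaction was -1.70 and did not pass (edgeR adjusted p = 0.333). Against all other barcodes it was -2.28 (adjusted p = 0.00135). Leaving out any 1 of WT mouse 2, WT mouse 3, Aromhum mouse 1 or Aromhum mouse 2 ended the call, with Thy1 interactions from -3.31 to -3.10. The cause of the difference was not tested.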

How the results depend on the processing

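The 296 genotype calls (170 higher, 126 lower) moved most with single mice: leaving out 1 mouse gave 0 to 952 calls (0 to 496 higher, 0 to 456 lower), 0 without WT replicate 3. Calls were 48 (25 higher, 23 lower) within the study's limits, with 3276 genes tested, 758 (429, 329) without the filter on low counts, 133 (74, 59) with equal members per mouse and 184 (103, 81) with at most 2500 genes per barcode. DESeq2 called 373, of which 190 were lower, so that lower calls outnumbered higher ones there. With the replicate number as a block the count was 730 (373, 357), and 809 (422, 387) without the mixed sub-clusters as well. Every mouse correlated best with its own number, with 1 of the 3 correlations under 0.1, which is a hint of pairing from the data. The labels do not say that the number marks a shared date, so the block was kept as an alternative. The cause of these shifts was not tested.

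The 1 interaction call became 50 (17 higher, 33 lower) against the second most similar column group, 11 (5, 6) with limma voom, 358 (163, 195) without the filter, 1 higher and 0 lower within the study's limits, and 0 to 149 (0 to 72, 0 to 77) with 1 mouse left out (32 without WT mouse 1, 149 without Aromhum mouse 3, and 0 without each other mouse). Alternatives added after the data were seen gave 549 (288, 261) against all other barcodes and 153 (37, 116) against column group 2.

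Of the 143 called genes tested within the study's limits, 141 kept their sign. The named genes whose sign turned were not called in the main comparison. Within the study's limits the log2 fold changes were 0.35 for Myf5, 0.036 for Nrip1, 0.094 for Klf9, 0.28 for Sat1, 0.065 for Itgb1, 0.23 for Fbxo30, -0.32 for Ccl2, -2.62 for Acta1 and 0.15 for Cd82. With at most 10% mitochondrial UMIs Myf5 was at 0.0013. With at most 2500 genes they were 0.022 for Myf5, 0.0040 for Des, -0.037 for Ccnd3, 0.024 for Itgb1, -0.026 for Ccl2, -1.31 for Acta1 and -1.37 for Mylpf, which then passed as lower (edgeR adjusted p = 0.0176). Without the Myog sub-cluster they were 0.024 for Myf5, -0.049 for Ccnd3, -0.60 for Acta1 and -0.29 for Mylpf. Without doublets Ccnd1 was at 0.023 and Itgb1 at 0.017, with equal members Ccnd3 at -0.12 and Itgb1 at 0.0405, without the mixed sub-clusters Ccnd1 at 0.051 and Itgb1 at 0.016, and with the block as well 0.063 and 0.0175. With 1 mouse left out, Myf5 ranged from -0.18 to 0.10, Cdkn1c from -0.52 to 2.33, Notch3 from -0.085 to 0.10, Ccnd1 from -0.28 to 0.021, Ccnd3 from -0.064 to 0.21, Itgb1 from -0.065 to 0.033 and Col4a1 from -0.073 to 0.22.

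The share comparisons kept their direction but cannot go below p = 0.1 in an exact test of 3 against 3 mice. Myog and Actc1 rest on few cells (34 and 17 Aromhum members with a UMI), and Thy1 on 6 to 36 UMIs per mouse.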
